A study of Mus musculus with 3 samples.

Results

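The 6 genes described here encode the core of the basement membrane: Col4a1 and Col4a2 (the alpha chains of the common type IV collagen trimer), Lamb1 and Lamc1 (the beta 1 and gamma 1 laminin chains), Nid1 (nidogen 1, the linker between laminin and collagen IV) and Hspg2 (the core protein of perlecan). They were taken by symbol, and all 6 were found among the 50507 genes of the deposited count table. Levels in untransfected cells were read from Day00 to Day06, and levels after transfection from a non-targeting siRNA (nt), a transfection without siRNA (Mock) and 33 siRNA pools.

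Basement membranes are thin sheets of matrix that lie under epithelia and endothelia and around muscle, fat and nerve cells. Laminin trimers bind cell surface receptors and assemble into a first network, type IV collagen forms a second, covalently crosslinked network, and nidogen and the heparan sulfate proteoglycan perlecan bridge both. Fibroblasts are known to secrete several of these chains although they do not sit on a basement membrane themselves.

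All cells were wild-type BL6 mouse embryonic fibroblasts (MEFs) at passage 2 that carried, by lentivirus, a doxycycline-inducible cassette of Oct4, Sox2, Klf4 and c-Myc with its transactivator. The groups therefore share the cassette, and no group of uninfected cells was analysed here. The time course (3 libraries each of Day00, Day01, Day02, Day03, Day04, Day05 and Day06) was re-plated but not transfected. In the screen, siRNA at 40 nM or lipid alone was given before induction and RNA was read at day 6 (3 libraries of nt, 5 of Mock and 98 of siRNAs, 3 per siRNA apart from 2 of siMtf1). The 5 Mock libraries are 2 columns of the same name for each of replicates 1 and 2 and 1 column for replicate 3, and the labels do not say whether those of 1 replicate are separate cultures. Induced cells were kept with doxycycline (2 ug/mL), the GSK3 inhibitor chiron (3 uM), an inhibitor of the TGF-beta receptor ALK5 (0.25 uM), ascorbic acid (50 ug/mL) and LIF. Each library is bulk RNA of a culture that reprograms unevenly, so that fewer cells of a type and less RNA per cell cannot be told apart.

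RNA was counted by CEL-Seq2, which reads 1 tag per molecule at the 3′ end and removes PCR copies through unique molecular identifiers. Levels are given as CPM, that is counts per 1000000 counts of the TMM-scaled total of the 3013 genes that passed the filter on low counts. The 127 libraries used held between 29656 and 235292 counts, with a median of 73279. The labels say only that the 3 replicates are separate samples, so p-values measure the spread between these libraries, which may be partly technical, and intervals around summed counts cover counting error only. Fibroblast markers were all detected at Day00, where 14 listed genes summed to between 7287 and 8681 CPM, while the endothelial markers Cdh5, Cldn5 and Tie1 and the extraembryonic endoderm markers Gata4, Sox7, Sox17, Foxa2, Amn and Hnf4a had no count in Day00, Day01, Day06, nt, Mock or any of the 6 siRNA pools named below. At Day00 the 12 extraembryonic endoderm markers summed to between 61.6 and 148 CPM with 9 at 0, and Dab2 was among those with counts. The 9 endothelial markers summed to between 20.5 and 49.7 CPM at Day00 with 7 at 0, where Flt1 and Emcn had counts.

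The depth set what could be tested. Nid1 had 1726 counts and Col4a1 had 1182 over the 127 libraries, each with at least 1 count in 126 of them. The other members were sparse, with 451 counts of Lamb1, 188 of Col4a2, 128 of Hspg2 and 115 of Lamc1. Only Col4a1 and Nid1 passed the filter, and the 4 sparse genes were tested in a second edgeR fit with the same scaling that added the listed genes with low counts. No library held more than 18 counts of Lamb1, 9 of Col4a2, 6 of Hspg2 or 4 of Lamc1. For these 4 genes a difference that was not called is not shown to be absent.

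In the genome (mm10, which is GRCm38, with GENCODE vM21 annotation), Col4a1 lies at chr8:11198423-11312826 on the minus strand and Col4a2 at chr8:11312805-11449287 on the plus strand. Both are transcribed away from a shared start region and their outermost 5′ exons overlap by 22 bases. Nid1 is at chr13:13437551-13512269 (plus), Lamb1 at chr12:31265234-31329644 (plus), Lamc1 at chr1:153218922-153332786 (minus) and Hspg2 at chr4:137468769-137570630 (plus). Exons of the antisense gene Gm15419 overlap Col4a2 and those of Gm48682 overlap Nid1. Whether the counting used strand is not given in the sources used here, so reads of such partners cannot be told apart. The overlap of Col4a1 and Col4a2 is shown because the genes of this pair stand at the same start, yet 1 was counted well and the other sparsely. It is printed on the plus strand at chr8:11312801-11312830, where capitals mark the bases that belong to exons of both genes.
Col4a1 and Col4a2 shared 5′ ends: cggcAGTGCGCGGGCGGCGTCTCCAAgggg
Nid1 is the member with the most calls in the screen, and the 199 bases ahead of its annotated starts are printed below on the plus strand (chr13:13437352-13437550). Capitals mark a GC box (GGGCGG) and a CCAAT box read on the other strand.
Nid1 upstream: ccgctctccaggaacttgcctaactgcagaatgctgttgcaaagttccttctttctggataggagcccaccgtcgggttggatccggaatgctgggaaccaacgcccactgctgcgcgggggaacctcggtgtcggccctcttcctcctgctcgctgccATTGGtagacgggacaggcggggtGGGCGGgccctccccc

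RefSeq promoter windows (GRCm38.p6, 250 bases before to 50 after a start) matched 5 of the 6 genes. GGGCGG was found on either strand in 5 of these 5 windows against 35.7% of 32851 windows of the same length, and CCAAT in 4 of them against 37.4%. Windows of Col4a1 and Col4a2 share bases, so their matches are not separate. The TATA box TATAAA was in none of the 5, against 13.6% of all windows. The AP-1 motif TGANTCA was in none either, against 7.81%, nor was the E-box CAGGTG, which is in 20.2%. The 5 windows held between 63.7% and 74% G and C, and the windows of all genes were not matched for this. A match describes letters only.

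The time course asks how the genes move while fibroblasts are being reprogrammed. Col4a1 was highest in fibroblasts and was lower on every later day, in 2 steps, whereas Nid1 was higher at Day01 and was not called against Day00 on any later day. The other 4 members were not called on any day. Taken as any change over the 7 days, the edgeR F-test called Col4a1 (adjusted p = 1.52e-18) and Nid1 (adjusted p = 0.00157) and none of the 4 sparse members in the second fit, where it gave Col4a2 an adjusted p of 0.131. Only 1 of these 2 genes was still called when replicate 2 was left out, and likewise for replicate 3. Of all genes tested, 42.5% were called by the same F-test.

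Col4a1 stood at 842, 487 and 795 CPM in the 3 Day00 libraries. At Day01 it was at 321, 293 and 319 CPM, so that every library lay below the lowest of Day00. The log2 fold change was -1.23 (SE 0.28, edgeR adjusted p = 4.95e-04). The call was lost with limma on the deposited log2 values (log2 fold change -0.84, adjusted p = 0.425). Day02 and Day03 followed at means of 262 ± 30.9 and 316 ± 65.2 CPM (SD, n = 3), and no member was called in either step from the day before, where 4.81% and 2.82% of all genes were. The next fall came between Day03 and Day04, from a mean of 316 to 94.7 ± 16.4 CPM (log2 fold change -1.67, SE 0.35, edgeR adjusted p = 2.10e-04), and the libraries of these days did not overlap. In that step 11.9% of genes were called. The mean was then 133 ± 38.7 CPM at Day05 and 138 ± 5.75 CPM at Day06, with no member called in the last steps, where 4.78% and 7.87% of genes were. At an unadjusted p under 0.05 Nid1 was the 1 member from Day01 to Day02 and from Day04 to Day05, and there was none in the other steps without a call.

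From end to end, Col4a1 at Day06 was at 134, 145 and 136 CPM, with a log2 fold change of -2.37 against Day00 (SE 0.31, edgeR adjusted p = 2.42e-11). The summed counts, 37 against 160, gave a 5.37-fold lower rate, for which counting error allows 3.74 to 7.91 at 95% confidence. Col4a1 was the 1 member called in this comparison, in which 11.5% of all tested genes were called lower. It was also called lower at each of Day02 to Day05 against Day00, with log2 fold changes of -1.24 to -2.91, where 11.6%, 10.9%, 18.7% and 31.9% of genes were called in either direction. All days share the same Day00 libraries.

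Nid1 began lower, at 164, 127 and 174 CPM in the Day00 libraries. At Day01 it reached 367, 329.8 and 387 CPM, above every Day00 library. It rose by 1.18 on the log2 scale (SE 0.34, edgeR adjusted p = 0.0116), in a comparison that called 9.89% of all genes. The call was lost without replicate 2 (adjusted p = 0.0705), without replicate 3 (adjusted p = 0.143), without a filter (adjusted p = 0.0798) and with limma (adjusted p = 0.0977), while the log2 fold change without any 1 replicate stayed between 1.18 and 1.23.

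After Day01 the level of Nid1 came down unevenly, with means of 212 ± 57.2 CPM at Day02, 254 ± 8.03 at Day03, 135 ± 12.4 at Day04, 223 ± 37.1 at Day05 and 159 ± 42.9 at Day06 (SD, n = 3 each). No consecutive step was called. The largest, from Day03 to Day04, had a log2 fold change of -0.89 (SE 0.34, edgeR adjusted p = 0.0705), and its call depended on the processing, as DESeq2 gave an adjusted p of 0.0349. At Day06 the 3 libraries stood at 208, 127 and 143 CPM and overlapped those of Day00. The log2 fold change against Day00 was -0.03 (SE 0.38, edgeR adjusted p = 0.970).

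The balance between both genes at Day00 stood apart from that of every later day. Within a library, Col4a1 made up 83.7%, 79.3% and 82.1% of the counts of Col4a1 and Nid1 together at Day00. On the 18 later libraries of the time course that share lay between 28.6% and 59.5%, and it was 46.7%, 47.1% and 45.2% at Day01. The difference of Day01 from Day00 was -35.4 percentage points, and 3 libraries against 3 cannot go below p = 0.10 in a two-sided exact permutation test, which is the value obtained. This share does not depend on the scaling of the libraries. It was computed after the levels had been seen.

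**Figure D1:**
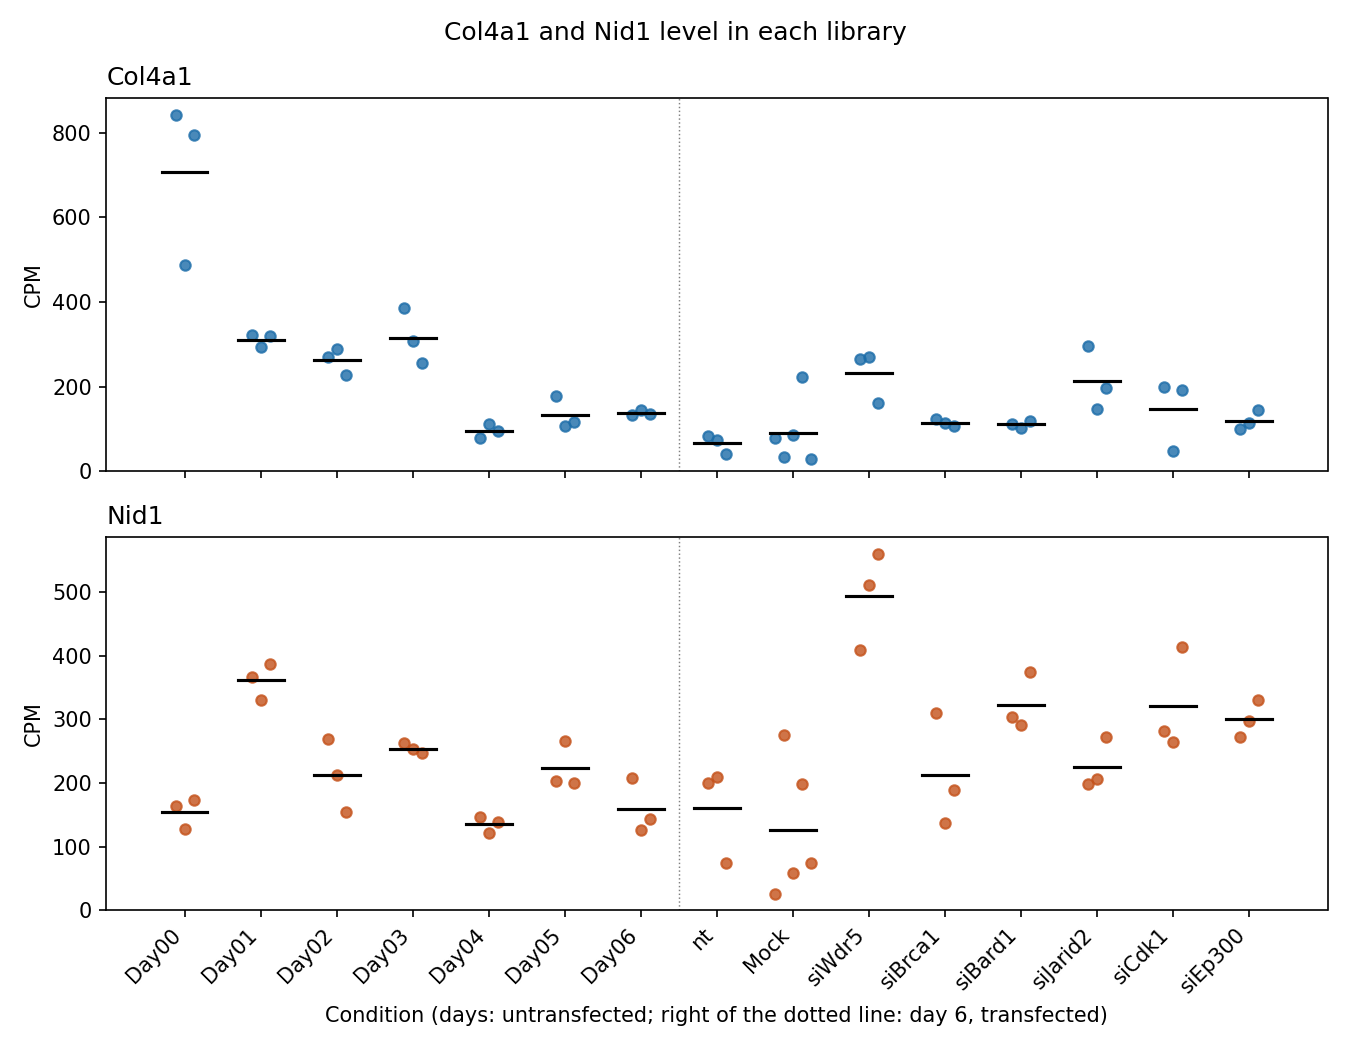
CPM of Col4a1 (top) and Nid1 (bottom) in each library (points) with the mean of each condition (bars), for the 7 days of the untransfected time course and 8 transfected conditions of day 6. Col4a1 falls after Day00 and again at Day04, Nid1 peaks at Day01 among the days, and the siWdr5 libraries lie above the nt libraries in both panels.

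Col4a2, the partner chain of Col4a1, had far fewer counts and was not called. Its 3 libraries had 1, 2 and 8 counts at Day00 and 1, 0 and 1 at Day06. In the second fit the log2 fold change was -2.49 (SE 1.03), with an edgeR adjusted p of 0.0692 that missed the threshold. The rate of Day06 was 0.146 of that of Day00 by counting, with a 95% interval of 0.0158 to 0.670. Over Day04 to Day06 together it had 18 counts against 47 over Day00 to Day03, a ratio of 0.387 with an interval of 0.211 to 0.679. That grouping of days was chosen after the values were seen, and the interval leaves out the spread between libraries. Its summed rate was 42.2 CPM at Day01, 62.2 at Day02 and 48.6 at Day03 against 50.7 at Day00. The ratio of Day01 to Day00 by counting was 0.831 with an interval of 0.305 to 2.21, which includes the ratio of 0.419 of Col4a1. Whether both chains differ in their change at Day01 was not tested.

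The laminin chains showed no called change over the days. Lamb1 had 3, 1 and 18 counts at Day00, and these libraries ranged so widely that their mean of 77.2 CPM had an SD of 65.3. Its lowest day was Day02, with 2, 2 and 3 counts and a log2 fold change of -1.74 against Day00 (SE 0.66, edgeR adjusted p = 0.0677). At Day06 it had 3, 3 and 10 counts, a log2 fold change of -0.68 (SE 0.57, edgeR adjusted p = 0.441). Lamc1 never had more than 6 counts in the 3 libraries of a day, and its log2 fold changes against Day00 lay between -1.44 and 0.23, none of them called.

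Hspg2 had its highest mean of all conditions at Day04. There were 0, 0 and 2 counts at Day00, 4, 6 and 3 at Day04 and 2, 3 and 5 at Day06. The log2 fold change was 2.04 at Day04 (SE 1.03, edgeR adjusted p = 0.161) and 1.89 at Day06 (SE 1.08, edgeR adjusted p = 0.216), so neither was called. Without replicate 3 the log2 fold change at Day06 was 4.23, and without replicate 2 it was 1.47, neither of them called. The ratio of Day06 to Day00 by counting was 4.02, with a 95% interval of 0.857 to 37.8 that includes no change.

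**Figure D2:**
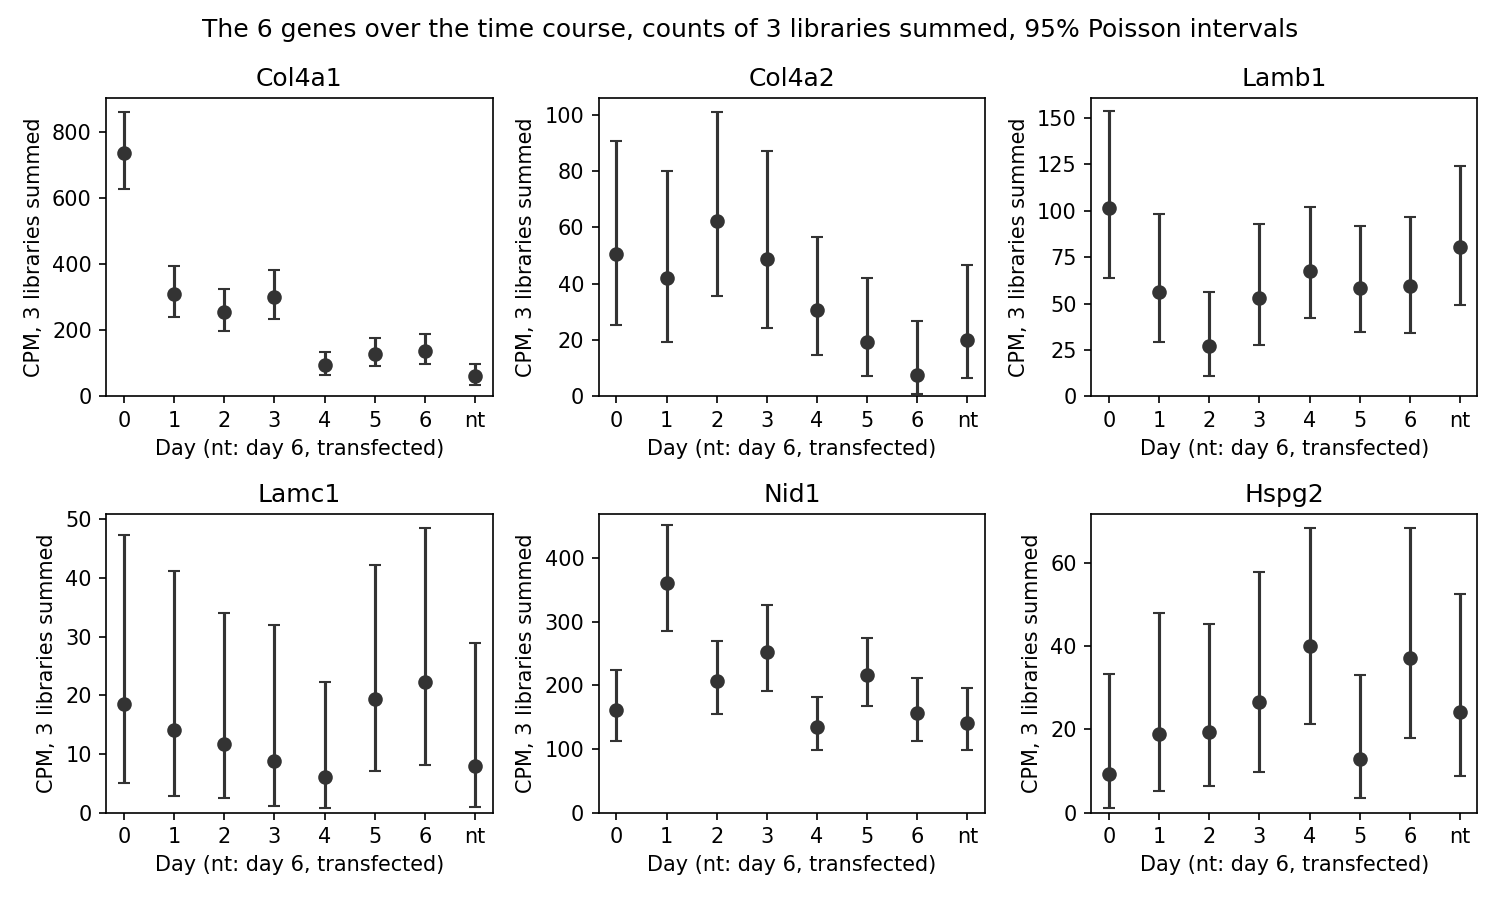
Level of each of the 6 genes (CPM, counts of 3 libraries summed) on Day00 to Day06 and in nt, with 95% Poisson intervals that cover counting error only. The vertical scales differ by gene, and intervals of Col4a1 at Day00 and Day01 are apart while those of Lamc1 and Hspg2 are wide on every day.

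Genes that work on the same matrix were taken from 5 lists. A gene can pass the filter through a condition in which it is high, such as Day00. This alone can lean the medians and the shares of called genes, here and in the marker lists. Tested genes of a list are those that passed the filter, and others with counts entered the second fit only. Of 17 other basement membrane chains only Lama4 passed the filter. Lama4, the laminin alpha 4 chain of mesenchymal and vascular laminins, rose from 19.4 ± 2.50 CPM at Day00 to 81.96 ± 58.9 at Day06 (log2 fold change 1.97, edgeR adjusted p = 0.0448). Of 18 associated proteins 5 passed and 3 of them fell. Sparc, a collagen-binding matricellular protein, fell from 3261 ± 177 to 1037 ± 72.6 CPM (log2 fold change -1.66, edgeR adjusted p = 6.04e-16), and both Fbln2, the nidogen binding fibulin 2 (from 516 ± 148 to 124 ± 36.9 CPM), and Fn1, fibronectin (log2 fold change -2.89), fell with it. The median log2 fold change of the 5 was -1.66 against 0.05 over all 3013 genes.

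The next list holds enzymes and other proteins that make and crosslink collagen. Of 20 such genes 5 passed the filter and 3 fell at Day06 against Day00, with a median log2 fold change of -1.41. Lox, the lysyl oxidase that starts collagen crosslinks, fell from 1242 ± 245 to 66.6 ± 40.0 CPM (log2 fold change -4.45, edgeR adjusted p = 1.42e-18). In the second fit 4 more were called lower, among them Loxl2, the lysyl oxidase-like 2 enzyme known to crosslink collagen IV, which went from 89.5 ± 82.5 CPM to no count. Creb3l1, a transcription factor for secretory and collagen genes, and P4ha3, a prolyl hydroxylase subunit, were lower by the same test.

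Cells bind this matrix through integrins, dystroglycan and syndecans and cut it with secreted proteases. Of 4 receptors that passed the filter out of 17, Itgb1, the beta 1 chain shared by the laminin and collagen binding integrins, fell from 882 ± 192 to 246 ± 9.97 CPM (log2 fold change -1.77, edgeR adjusted p = 1.39e-10) and Sdc2, the heparan sulfate proteoglycan syndecan 2, rose by 1.09 on the log2 scale. Of 14 remodelling genes 8 passed, 3 fell and none rose, where 11.5% of all genes were called lower. Timp3, a matrix-bound inhibitor of metalloproteinases, had a log2 fold change of -2.49, its relative Timp2 one of -0.84 and the cathepsin Ctsl one of -0.83.

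Markers of the cell types moved over the same days. The summed level of the 14 fibroblast markers went from between 7287 and 8681 CPM at Day00 to between 3398 and 4199 at Day06, with 7 of 12 tested called lower and 3 higher. The 9 pericyte and smooth muscle markers went from between 4516 and 6108 CPM to between 163 and 519. All 4 that passed the filter were called lower, and of the rest Pdgfrb was called lower in the second fit. The 9 endothelial markers summed to at most 49.7 CPM in either group, and 7 of them had no count in each. The 12 epithelial markers went from between 24.8 and 63.5 CPM with 9 at 0 to between 104 and 307 CPM with 4 at 0, and Cdh1, Epcam and Krt8 were called higher in the second fit. The 6 blood markers went from between 124 and 205 CPM to between 18.1 and 89.0, and Lyz2, the 1 of them tested in the first fit, was called lower. At Day01 the fibroblast markers summed to between 4080 and 4899 CPM, and the pericyte and smooth muscle markers to between 2482 and 3152. The blood markers were then between 45.5 and 48.9 CPM and the epithelial markers between 0 and 36.6. The part of the marker changes in the changes of Col4a1 and Nid1 was not tested. With scaling by RLE instead of TMM the median of all genes in Day06 against Day00 moved by -0.158. The split of all calls in that comparison went from 321 higher and 347 lower to 229 and 431.

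Transfection was compared through nt and Day06, which are both reprogramming cells of day 6. Col4a1 was lower in nt, at 83.3, 74.8 and 40.8 CPM against 134, 145 and 136, and the groups did not overlap. It fell by 1.16 on the log2 scale (SE 0.46) with an edgeR adjusted p of 0.0483, just inside the threshold, in a comparison that called 26.6% of genes. The call was lost without a filter (adjusted p = 0.544), without the replicate block (adjusted p = 0.0960), without any 1 replicate (adjusted p from 0.0800 to 0.410) and with limma on the deposited log2 values (adjusted p = 0.196). Nid1 was at 199.8, 209 and 73.5 CPM in nt, spanning its Day06 libraries (log2 fold change -0.11, SE 0.38, edgeR adjusted p = 0.852). The third nt library was the lowest of the 3 for both genes.

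Among the listed genes, nt was lower than Day06 for Lama4 (log2 fold change -2.18), Fbln2 (-2.39), Npnt, the integrin ligand nephronectin (-2.13), Sparc (-1.34) and Lox (-2.53). Plod3, a collagen lysyl hydroxylase, was called lower in the second fit (log2 fold change -2.18). Of 8 remodelling genes tested 4 were lower, among them Timp3, Ctsb and Timp1, and 2 were higher. Mmp3, the secreted metalloproteinase stromelysin 1, was 1 of the latter, at 236 ± 18.6 CPM in nt against 84.8 ± 8.52 at Day06. No receptor was called. The fibroblast markers summed to between 2459 and 3480 CPM in nt and to between 3398 and 4199 at Day06. The pericyte and smooth muscle markers summed to between 73.5 and 99.9 CPM in nt and to between 163 and 519 at Day06, with Acta2 called lower in nt. The part of either list in the difference of Col4a1 was not tested. With RLE scaling the median of all genes moved by -0.142, and the split of calls went from 470 higher and 332 lower to 345 and 436.

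Mock, the lipid without siRNA, varied widely between its libraries. Over the 5 Mock libraries Col4a1 ran from 29.9 through a median of 77.4 to 223 CPM and Nid1 from 25.8 through 74.6 to 275 CPM, wider than the 3 nt libraries. No member was called by edgeR (0 also at an unadjusted p under 0.05), by DESeq2 or by limma, and 1.56% of all genes were called. With RLE scaling the split of those calls went from 31 higher and 16 lower to 39 and 11. Another Mock library and a siMtf1 library, which the authors left out of their log2 table, held 6403 and 7981 counts, with no count of a member in the first and 4 of Nid1 and 1 of Lamb1 in the second.

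The screen asks which chromatin regulators change these genes when they are knocked down during reprogramming. Over the 33 siRNA pools and 6 members, 6 of 198 tests against nt were called, each of them higher than nt, and they fell on Col4a1 and Nid1. At an unadjusted p under 0.05 there were 12 higher and 15 lower. The share of all genes under that unadjusted threshold was not taken in any comparison, so such counts are descriptions. Of the 66 tests of Col4a1 and Nid1, which passed the filter, 9.09% were called, and over all genes that passed it 1.29% of tests were called higher and 1.28% lower. As any difference among the transfected conditions, the edgeR F-test called Nid1 (adjusted p = 8.65e-14) and Col4a1 (adjusted p = 5.05e-06), where 44.8% of all genes were called, and gave Hspg2 an adjusted p of 0.0900 and Col4a2 one of 0.259. All 33 comparisons share the same 3 nt libraries, so they are not independent of each other. The members were chosen with earlier results of these data known, so their share of calls is a description.

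The knockdowns themselves could hardly be checked in these counts, and the study's own RT-qPCR of Wdr5, Brca1 and Bard1 is not analysed here. Wdr5 had 2, 3 and 2 counts in the siWdr5 libraries and 2, 3 and 4 in nt, so that the rate in siWdr5 was 0.771 of that in nt (95% counting interval from 0.244 to 2.33). Bard1 had none in siBard1 and 2 in nt, Brca1 had 4 in siBrca1 and 2 in nt, Cdk1 had 4 in siCdk1 and 5 in nt, and Jarid2 had 3 in siJarid2 and 8 in nt. Ep300 went against its label, with 4, 4 and 9 counts in the libraries labelled siEp300 and 0, 3 and 0 in nt, a rate 3.91 times as high (interval from 1.13 to 20.8). A tag at the 3′ end can remain after cleavage of a transcript, and the counts say nothing of the protein.

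The siWdr5 pool gave the highest level of Nid1 of all 42 conditions and the highest mean of Col4a1 among the transfected ones. For Col4a1 its libraries overlapped those of siJarid2, the next pool (means of 232 ± 61.1 and 213 ± 75.9 CPM). WDR5 is a core subunit of the MLL and SET1 histone H3 lysine 4 methyltransferase complexes. The guide strands of 2 siRNAs of the Wdr5 set are printed below, 5′ to 3′ over their 19 paired bases with the seed (bases 2 to 8) in capitals, because this was the 1 pool with 2 called members. Each matches over its full length transcripts of Wdr5 and of no other gene in GENCODE vM21. The complement of the first seed also occurs in transcripts of Col4a1 and Lamc1, and that of the second in transcripts of Col4a2, which describes letters only. The study pooled 3 siRNAs per target. The other siRNA of this set was not analysed here, so these matches do not cover the whole pool.
Wdr5 siRNA 1: cAUAGUUUggcuuaacugg
Wdr5 siRNA 2: cACGGUUGaaaugaacggc

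Col4a1 stood at 264, 270.1 and 161 CPM in siWdr5 against 83.3, 74.8 and 40.8 in nt. All siWdr5 libraries lay above all nt libraries, and the lowest of them lay below the highest Mock library. Col4a1 rose by 1.83 on the log2 scale (SE 0.43, edgeR adjusted p = 3.73e-04). Nid1 stood at 409, 512 and 560.0 CPM against 199.8, 209 and 73.5, again without overlap and also above each Mock library. It rose by 1.77 (SE 0.31, edgeR adjusted p = 1.77e-06). In this comparison 12.2% of all genes were called higher. Both calls held in DESeq2 and in every edgeR alternative run, with any 1 replicate left out and with nt and Mock joined as control, and both were lost with limma on the deposited log2 values (adjusted p = 0.0855 for each). Without replicate 3 the log2 fold change of Nid1 was 1.22.

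The remaining members did not pass the test in siWdr5. Lamb1 had 8, 6 and 8 counts against 6, 5 and 9 in nt (log2 fold change 0.11, SE 0.54, edgeR adjusted p = 0.901). By counting, its ratio to nt was 1.09 with an interval of 0.568 to 2.11. The ratios were 3.70 for Col4a1 (2.07 to 7.05) and 3.57 for Nid1 (2.44 to 5.35), and the intervals of Lamb1 and Col4a1 overlap. Col4a2 had 4, 2 and 4 counts against 1, 0 and 4 (log2 fold change 0.93, SE 0.90), Hspg2 had 4, 2 and 3 against 2, 1 and 3 (log2 fold change 0.58, SE 0.87) and Lamc1 had 3, 0 and 0 against 0, 2 and 0. Whether the change of Lamb1 differs from those of Col4a1 and Nid1 was not tested.

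Other matrix genes rose along with them. Lama4, again the 1 other chain that passed the filter, rose by 2.02 on the log2 scale, and the second fit called none of the other chains. Of the 5 associated proteins tested 3 rose, Fbln2 from 24.3 ± 9.18 to 308 ± 84.5 CPM (log2 fold change 3.60, edgeR adjusted p = 1.07e-09), Npnt by 2.23 and Sparc from 413 ± 60.6 to 1698 ± 198 CPM (log2 fold change 2.06, edgeR adjusted p = 2.75e-17), with a list median of 2.06 against 0.00 over all genes. Efemp1, fibulin 3, was higher in the second fit. Of 5 biosynthesis genes Lox rose by 2.66 and Serpinh1, the collagen chaperone HSP47, by 1.01, and Creb3l1 was higher in the second fit, where nt had no count.

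Of 4 receptors tested Dag1, the laminin receptor dystroglycan, rose by 1.85 on the log2 scale, and Sdc1, syndecan 1, was higher in the second fit. Of 8 remodelling genes 6 rose and 1 fell. Timp2 rose from 434 ± 118 to 1621 ± 238 CPM (log2 fold change 1.90, edgeR adjusted p = 1.31e-14), Timp3 by 2.83 and the aggrecanase Adamts5 by 2.10, whereas Mmp3 fell by 1.80. The fibroblast markers summed to between 6445 and 7167 CPM in siWdr5 against 2459 to 3480 in nt, with 9 of 12 tested called higher, and the pericyte and smooth muscle markers to between 418 and 725 CPM against 73.5 to 99.9. The epithelial markers summed to between 52.8 and 114 CPM in siWdr5 against 123 to 150 in nt, with none called. The part of these in the rise of Col4a1 and Nid1 was not tested. With RLE scaling the median of all genes moved by 0.174 and the split of calls went from 367 higher and 454 lower to 490 and 315. The log2 fold changes of Col4a1 and Nid1 were then 2.01 and 1.95, each still above that median.

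BRCA1 and BARD1 form a ubiquitin ligase that acts in DNA repair. In siBard1, Nid1 stood at 303, 291 and 375 CPM, above all nt libraries, and rose by 1.19 on the log2 scale (SE 0.33, edgeR adjusted p = 0.00842) where 5.54% of genes were called higher. Replicate 3 holds both the lowest nt library and the highest siBard1 library of Nid1. Without it the log2 fold change was 0.51 and the call was lost (adjusted p = 0.585). The call was also lost without the replicate block (adjusted p = 0.0548), without a filter (adjusted p = 0.159) and with limma (adjusted p = 0.463). Col4a1 in siBard1, at 112, 103 and 118 CPM, lay above nt too, but its log2 fold change of 0.88 (SE 0.48) was not called (edgeR adjusted p = 0.251).

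In siBrca1 no member was called by edgeR, DESeq2 or limma, and 1 (Lamb1) had an unadjusted p under 0.05, where 4.22% of all genes were called. Nid1 stood at 310.0, 137 and 188 CPM, across the nt range, with a log2 fold change of 0.53 (SE 0.39, edgeR adjusted p = 0.566). Col4a1 at 124, 114 and 106 CPM had a log2 fold change of 0.87 (SE 0.52, edgeR adjusted p = 0.442). Lamb1 had 0, 2 and 3 counts against 6, 5 and 9 in nt, a log2 fold change of -1.47 (SE 0.74, edgeR adjusted p = 0.322).

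The 3 pools were also set against each other directly. Nid1 was higher in siWdr5 than in siBrca1 by 1.25 on the log2 scale (SE 0.31, edgeR adjusted p = 0.00282), in a comparison that called 9.99% of genes, and this call was lost without replicate 2 (adjusted p = 0.111) or replicate 3 (adjusted p = 0.126) and with limma (adjusted p = 0.730). RLE scaling moved the median of all genes here by 0.127 and the split of calls from 91 higher and 210 lower to 137 and 151. The fibroblast markers summed to between 6445 and 7167 CPM in siWdr5 and to between 3442 and 4608 in siBrca1. The pericyte and smooth muscle markers overlapped, at 418 to 725 and 342 to 683 CPM. The part of either list was not tested. Col4a1 in the same comparison had a log2 fold change of 0.96 (SE 0.41, edgeR adjusted p = 0.125). Between siWdr5 and siBard1 edgeR called no member, although Col4a1 (log2 fold change 0.95, SE 0.37) and Nid1 (0.58, SE 0.27) both had an unadjusted p under 0.05, and 8.36% of all genes were called. Between siBrca1 and siBard1 none was called either, with Nid1 (log2 fold change -0.67, SE 0.33) at an unadjusted p under 0.05, and 0.863% of genes were called.

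A further 3 pools gave 1 called member each. CDK1 is the kinase that drives entry into mitosis, EP300 a histone acetyltransferase and JARID2 a cofactor of Polycomb repressive complex 2. In siCdk1 Nid1 was at 282, 265 and 414 CPM and rose by 1.18 on the log2 scale (SE 0.34, edgeR adjusted p = 0.0303), where 1.53% of genes were called higher. In the libraries labelled siEp300 it was at 272, 298 and 330.3 CPM and rose by 1.07 (SE 0.33, edgeR adjusted p = 0.0290), where 3.02% were. Both calls were lost without replicate 3, with log2 fold changes of 0.43 and 0.48, without the replicate block (adjusted p = 0.161 and 0.164), without a filter and with limma. The pericyte and smooth muscle markers summed to between 265 and 564 CPM in siCdk1, 511 and 1029 in siEp300 and 497 and 814 in siBard1, all above nt, and the fibroblast markers to between 3452 and 4526, 3447 and 5047 and 3924 and 5206 CPM. The epithelial markers summed to between 0 and 90.2 CPM in siBard1 and 30.3 and 99.6 in siCdk1. In siEp300 they summed to between 140 and 184 CPM, against 123 to 150 in nt. The part of these 3 lists in the rise of Nid1 was not tested. RLE scaling moved the split of all calls from 46 higher and 32 lower to 80 and 30 in siCdk1 and from 91 and 80 to 116 and 52 in siEp300. Col4a1 had log2 fold changes of 1.28 and 1.07 in these pools and was not called.

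In siJarid2 it was Col4a1 that was called, at 296, 147 and 197 CPM (log2 fold change 1.77, SE 0.48, edgeR adjusted p = 0.0408), where 0.398% of all genes were called higher. The call was lost without any 1 replicate (adjusted p from 0.100 to 0.396), without the replicate block (adjusted p = 0.223), with all 129 libraries (adjusted p = 0.0569), without a filter and with limma (adjusted p = 0.146). RLE scaling moved the split of all calls from 12 higher and 9 lower to 16 and 7. The fibroblast markers summed to between 2505 and 4742 CPM in siJarid2. The pericyte and smooth muscle markers summed to between 148 and 295 CPM against 73.5 to 99.9 in nt, with none of 4 tested called. The part of either list was not tested. Nid1 in siJarid2 had a log2 fold change of 0.68 (SE 0.40, edgeR adjusted p = 0.548).

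**Figure D3:**
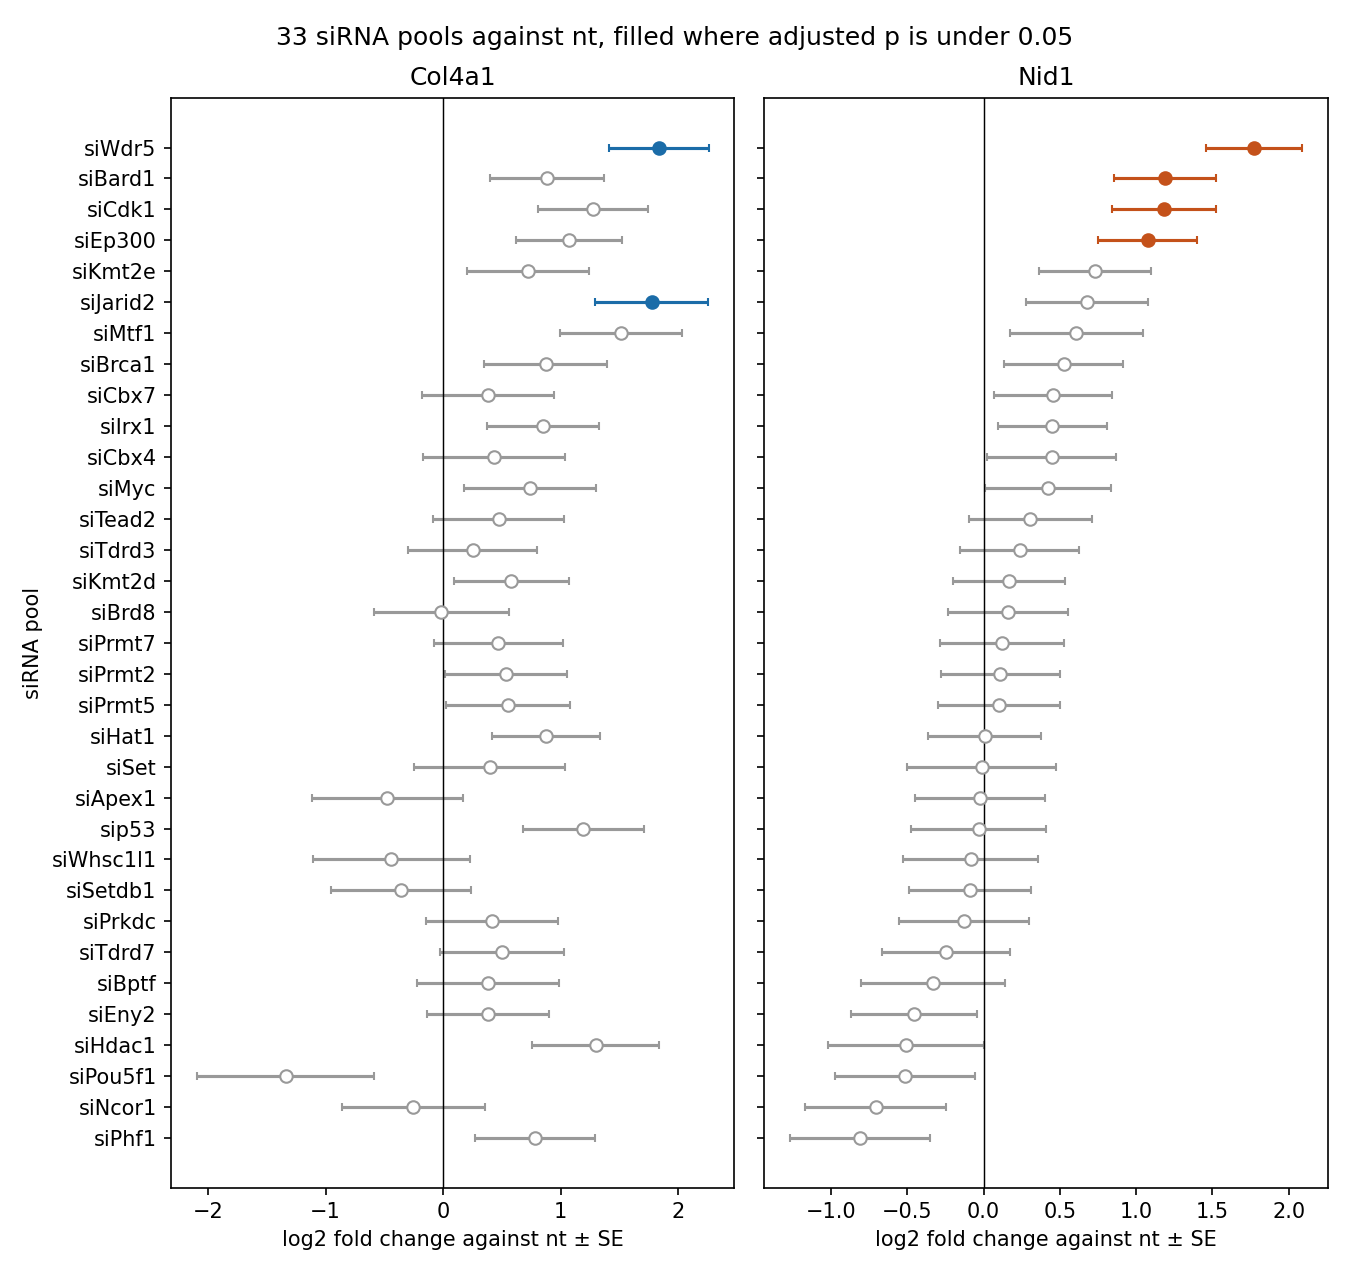
Log2 fold change against nt with its SE (horizontal axis) for Col4a1 (left) and Nid1 (right) in each of the 33 siRNA pools (rows, sorted by Nid1), filled where the edgeR adjusted p is under 0.05. Both genes are filled in siWdr5, Nid1 also in siBard1, siCdk1 and siEp300, and Col4a1 also in siJarid2.

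Across the 33 pools the members differed in where they lay around nt. The log2 fold change of Col4a1 was above 0 in 27 pools and that of Nid1 in 20, with medians of 0.54 and 0.12. Lamb1 was above 0 in 2 pools and Hspg2 in 2, with medians of -0.85 and -1.19, and each had an unadjusted p under 0.05 in 7 pools, all lower, none of which passed the adjustment (lowest adjusted p 0.195 and 0.177). Mock was below nt for both genes (log2 fold changes of -0.48 and -0.66, not called) and above nt for Col4a1 (log2 fold change 0.45, not called). The cause of these positions around nt was not tested. The numbers of pools all rest on the same 3 nt libraries, which held 6, 5 and 9 counts of Lamb1 and 2, 1 and 3 of Hspg2. Hspg2 had no count in 8 conditions, siCdk1 and siIrx1 among them. The 3 nt libraries together held 6 counts, and neither difference was called (edgeR adjusted p = 0.206 in siCdk1 and 0.177 in siIrx1).

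The order of the levels over the 42 conditions was as follows. Col4a1 ran from a mean of 708 ± 193 CPM at Day00 through Day03, Day01, Day02, siWdr5 and siJarid2 down to 23.3 ± 23.7 in siPou5f1, named here after its value was seen, where the 3 libraries held 0, 2 and 2 counts and the difference from nt was not called (log2 fold change -1.34, SE 0.76, edgeR adjusted p = 0.354). Pou5f1 is the gene of Oct4, a factor of the cassette. Of 41 pairs of neighbours in this order, libraries failed to overlap in 2, Day00 above Day03 and Day01 above Day02. Nid1 ran from 494 ± 76.9 CPM in siWdr5 through Day01, siBard1, siCdk1 and siEp300 to 78.8 ± 38.2 in siPhf1, and neighbours did not overlap in 2 of 41 pairs, siWdr5 above Day01 and siEp300 above Day03. For the 4 sparse genes each pair of neighbours overlapped. The 6 genes together were highest at Day00, at a summed mean of 1008 ± 289 CPM, followed by siWdr5 at 904 ± 34.9, against 361 ± 101 in nt.

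**Figure D4:**
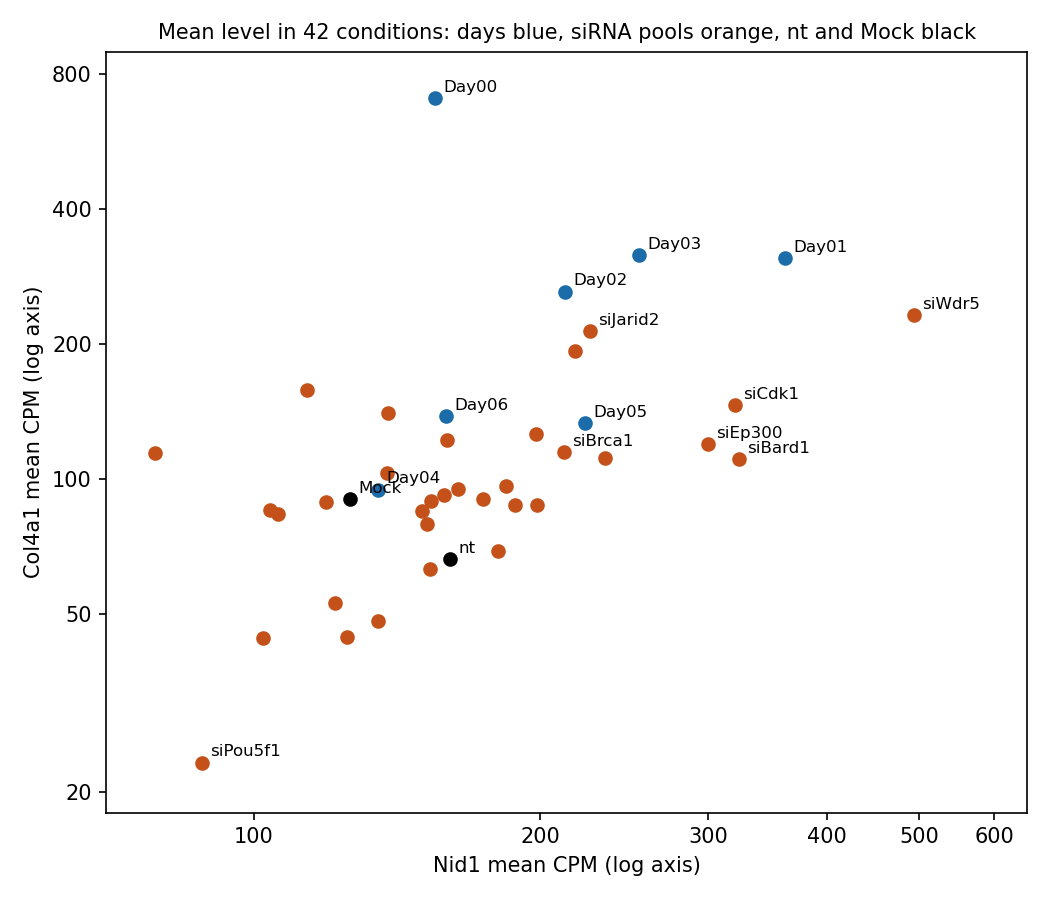
Mean CPM of Nid1 (horizontal log axis) and Col4a1 (vertical log axis) in each of the 42 conditions, 1 point each, with the days in blue, siRNA pools in orange and nt and Mock in black. Day00 stands apart with high Col4a1 at an ordinary level of Nid1, siWdr5 lies at the far right, and siPou5f1 lies at the lower left.

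Likeness of pattern was measured by Pearson's r over the mean log2 CPM of the 42 conditions, after removal of the replicate. Col4a1 and Nid1 had r = 0.57 with each other, 0.66 over the 35 transfected conditions and 0.26 over the 7 days. Conditions share sequencing pools and depth, and these values are descriptions. The genes most like Col4a1 were Cald1 (r = 0.87), which encodes the actin-binding protein caldesmon, Actb (0.85), beta-actin, and Cdh11 (0.84), the mesenchymal cadherin 11. Those most like Nid1 were Timp2 (0.74) and Lpp (0.73), a focal adhesion protein. Over the transfected conditions alone Cdh11 was the nearest to Col4a1 (0.77) and Lpp and Timp2 the nearest to Nid1 (0.83 each). Over the days alone the nearest genes were others, led by Lasp1 for Col4a1 and Gm12671 for Nid1.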

How the data were processed

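Bulk RNA of the time course and the screen was sequenced as 3 pools of CEL-Seq2 libraries, and the condition and replicate of each library were read from its column name. The authors mapped reads to mm10 with Bowtie2, used GENCODE vM13 and dropped poor libraries. Per gene symbol, the deposited counts are whole numbers corrected by UMI, with no normalization. The deposited log2 values are batch-corrected log2 CPM made by the authors, used here for 1 alternative only.

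The 127 libraries present in both tables, of 129, were tested with edgeR 4.0.16 (R 4.3.3, quasi-likelihood, TMM, filterByExpr) with terms for condition and replicate, 83 residual degrees of freedom, and Benjamini-Hochberg adjustment within a comparison at 0.05. SEs come from the test statistic. A second fit of 3119 genes added listed genes of low count. TMM factors ran from 0.825 to 1.39. Per the labels, the barcoded libraries of 1 replicate number share 1 sequencing file. Deviations from the condition mean were correlated between libraries of different conditions. The median was 0.0981 where they shared the number and -0.0685 where they did not. The study reports a correction of batch effects by regression, and the replicate was taken here as the batch. All 131 pairs of libraries of a condition differed by more than counting noise (chi-square per gene from 1.30 to 5.69). The steps were tested on simulated data.

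Named were the 6 members, siWdr5, siBrca1, siBard1 and each siRNA with a called member, up to 4 called genes of largest change from each of 5 lists in 3 comparisons, and the 3 genes nearest to Col4a1 and Nid1. A few results under this rule are not reported here. The members, lists and rules were chosen with earlier results of these data known. Alternatives were no replicate block, RLE scaling, no filter or a stricter one, all 129 libraries, each replicate left out (a library left alone is assumed to vary like the others), DESeq2 1.42.0, limma 3.58.1, 2 conditions alone, and nt with Mock as control. Promoters came from RefSeq, gene positions from GENCODE vM21 and siRNA sequences from the study's supplement.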

Additional observations from a re-analysis of the deposited data

Results flagged for a closer look

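Among the 5 Mock libraries, the only condition with enough libraries for a test of single values, Lamc1 was at 14.9 CPM in 1 library and at 0 in the other 4. It was listed because its gap to the rest passed the value set by Dixon's test, but the value is that of a single count, and any single count among libraries at 0 would pass, so nothing is read from it. The 5 libraries include pairs of columns that share a replicate number, and the labels do not say whether these are separate cultures.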

How the results depend on the processing

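Calls per comparison were recomputed in 97 alternatives for 9 results, and 80 stayed within 1.5 times the reported count. For siWdr5 both calls stayed in all but limma, which gave 0. For nt against Day06 the 1 call became 0 without a filter, without the replicate block and with limma, and the range without 1 replicate was 0 to 0. For siBard1 it became 0 in the same 3 settings, with a range of 0 to 1 without 1 replicate. The 6 calls over all siRNAs became 2 without a filter, 2 without the replicate block and 0 with limma, with a range of 2 to 5. Any change over days gave 1 to 2 members without 1 replicate. The cause was not tested, beyond that fewer libraries enter when a replicate is left out. Of 137 alternative values for the 12 called log2 fold changes, 102 kept their call, 35 kept the direction without it and 0 changed direction.

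Of 400 values for differences that were not called, 20 changed sign and none of these was called, and 4 gained a call. These were Nid1 from Day03 to Day04 with DESeq2, RLE scaling and 2 conditions alone, and Col4a1 in siWdr5 against siBrca1 with 2 conditions alone. Against Day00, Nid1 at Day06 was 0.12 without a filter, 0.016 with 2 conditions alone and -0.15 to 0.13 without 1 replicate, Lamb1 -0.90 to 0.14 and Lamc1 -0.38 to 1.28. In nt against Day06 Col4a2 ranged from -0.025 to 1.80 and Nid1 from -0.41 to 0.25 without 1 replicate. In Mock against nt the ranges were -0.37 to 0.85 for Col4a1, -1.34 to 1.20 for Col4a2 (0.16 with limma), -2.94 to 2.41 for Lamc1 and -1.47 to 0.050 for Hspg2. Lamc1 ranged from -3.00 to 3.43 in siWdr5 (-0.026 with limma), from -2.94 to 3.37 in siBrca1 and from -0.78 to 3.37 in siBard1, Hspg2 from -3.47 to 0.069 in siBrca1, and Col4a2 from -0.14 to 1.77 in siBard1. The cause of these sign changes was not tested. DESeq2 gave no adjusted p for siJarid2. Among these calls and log2 fold changes of the members, leaving out the replicate block ended no other call than those named, and no such value was taken for the listed genes or for Day02 to Day05 against Day00.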

Other observations

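Some listed matrix genes were also called higher than nt in siBrca1 and siBard1. Among genes that passed the filter, siBrca1 had 1 of 1 other chain, 1 of 5 associated proteins and 0 of 5 biosynthesis genes. It also had 0 of 4 receptors and 3 of 8 remodelling genes, where 75 of 3013 genes were called higher. For siBard1 the same order gave 0 of 1, 1 of 5, 1 of 5, 0 of 4 and 4 of 8, where 167 of 3013 (5.54%) were called higher. The second fit called no gene of these lists in either pool. In siBrca1, where no member was called, Sparc (log2 fold change 1.39, edgeR adjusted p = 1.24e-06), Timp2 (1.48, adjusted p = 2.15e-07), Timp3 (1.75, adjusted p = 0.0160), the cathepsin Ctsb (0.94, adjusted p = 0.00364) and Lama4 (2.43, adjusted p = 0.0434) were called higher. In siBard1 Sparc (1.41, adjusted p = 7.69e-08), Lox (2.91, adjusted p = 0.0160), Timp1 (1.23, adjusted p = 0.00724), Timp2 (1.63, adjusted p = 2.48e-10), Timp3 (2.45, adjusted p = 1.29e-06) and Ctsb (1.07, adjusted p = 6.16e-05) were. These comparisons share the nt libraries with each other and with siWdr5. No receptor of the list was called in either pool. In siBrca1 the pericyte and smooth muscle markers summed to between 342 and 683 CPM against 73.5 to 99.9 in nt, with Acta2 and Myl9 called higher of 4 tested. Its fibroblast markers summed to between 3442 and 4608 CPM against 2459 to 3480, with 2 called higher and 1 lower of 12 tested. In siBard1 4 of 4 pericyte and smooth muscle markers and 5 of 12 fibroblast markers tested were called higher. The part of these lists was not tested.

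The 6 genes summed were lowest of the 42 conditions in siPou5f1, at 157 ± 97.3 CPM (SD, n = 3), with no test made of a sum over the members. None of the 6 was called against nt in siPou5f1 (lowest edgeR adjusted p 0.195, for Lamb1).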
